A study of Mus musculus with 19 samples.

Results

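Slc5a3, Slc6a6, Nfat5 and Akr1b3 are genes of the osmolyte system, 4 of the 24844 genes in the deposited table of inguinal fat. They were listed by name and chosen by their RPM (reads of the gene scaled to the library's total) across the 4 groups described here, so their differences between groups are given as a description, without a test. All 4 genes were found in the table and all 4 passed the filter on low values. Their Ensembl identifiers are ENSMUSG00000089774 (Slc5a3), ENSMUSG00000030096 (Slc6a6), ENSMUSG00000003847 (Nfat5) and ENSMUSG00000001642 (Akr1b3). Slc5a3 and Slc6a6 are transporters, whereas Nfat5 is a transcription factor and Akr1b3 an enzyme.

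Organic osmolytes are small solutes, such as myo-inositol, taurine, sorbitol and betaine, that cells gather in place of salt to hold their volume in a concentrated medium. Slc5a3 carries myo-inositol into the cell together with sodium, Slc6a6 carries taurine in with sodium and chloride, and Akr1b3, aldose reductase, makes sorbitol from glucose. Nfat5, the tonicity-responsive relative of the NFAT factors, switches on the genes of these proteins under hypertonic stress, best known from the kidney medulla. Taurine is also made within fat cells from cysteine, and myo-inositol is the head group of the phosphoinositide lipids of cell membranes.

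RNA of whole inguinal fat, a subcutaneous depot, was sequenced from the 3' end in 19 wild-type C57BL/6JRj mice, 1 library a mouse, for a study that asks, by its title, whether FGF21 counters the metabolic disturbance of tumour-bearing, wasting animals. Housing was at 29 °C, following an acclimatization of 14 days, and tissue was taken 14 days after CHX 207 fibrosarcoma cells, a mouse sarcoma line, had been injected into the calf muscle. The efruxifermin group (5 mice) carried the tumour and received 2 mg/kg of efruxifermin, an engineered FGF21 protein, in 6 injections. The FGF21 AAV group (5 mice) carried the tumour and an adeno-associated virus (AAV) that encodes FGF21. The tumour control group (5 mice) carried the tumour and a control AAV, and the healthy group (4 mice) had no tumour and received control AAV and intraperitoneal PBS. Both agents were started 9 days ahead of the tumour. Whether efruxifermin mice also received control AAV is not stated, and neither sex nor age is given.

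Depth was 2676014 to 3196674 reads per library under efruxifermin, 2011067 to 3209666 under FGF21 AAV, 2106634 to 3693864 in tumour controls and 2693930 to 2844145 in healthy mice. The 10 adipocyte markers (Adipoq, Plin1, Cidec and others) were detected in every library, as the label of the tissue requires. Their mean log2(RPM + 1), used here as an adipocyte score, was 7.32 to 10.5 under efruxifermin, 9.13 to 10.6 under FGF21 AAV, 5.80 to 8.85 in tumour controls and 8.66 to 10.2 in healthy fat. Markers of lymph node and muscle varied more. The B cell score, a sign of the inguinal lymph node, exceeded 3 in 3 of 5 efruxifermin, 2 of 5 FGF21 AAV, 4 of 5 tumour control and 2 of 4 healthy libraries. The skeletal muscle score spanned 0.442 to 9.35 under efruxifermin, 0.352 to 7.15 under FGF21 AAV, 1.13 to 12.3 in tumour controls and 4.35 to 11.2 in healthy fat. A pair of libraries stood apart: tumour control 4, with the highest muscle score (12.3), and efruxifermin 3, with the fewest genes detected (12537), the lowest adipocyte score of its group (7.32) and 17.3% of its reads in Gm42418, a gene that overlaps ribosomal RNA. High shares of Gm42418 were also seen in FGF21 AAV 2 (15.4%) and FGF21 AAV 3 (12.0%), and tumour control 2 had the lowest adipocyte score of all libraries (5.80). Values without tumour control 4 and efruxifermin 3 are given where a result touches them.

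Slc5a3 shares its first exon and its promoter with Mrps6, a gene for a protein of the mitochondrial ribosome. In the GENCODE M21 annotation of GRCm38 both genes run on the same strand, the long coding exon of Slc5a3 lies in an intron of Mrps6, and the last exons, which 3' reads mark, are separate. A readthrough gene model, Gm49711, also overlaps the locus. The RefSeq starts of Slc5a3 and Mrps6 lie 14 bases apart on chromosome 16. The 250 bases before the Slc5a3 start (RefSeq, GRCm38.p6, chr16:92058072-92058321, plus strand) are shown because they serve both genes, and capitals mark the 236 bases that also lie in the Mrps6 promoter window:
Slc5a3 and Mrps6: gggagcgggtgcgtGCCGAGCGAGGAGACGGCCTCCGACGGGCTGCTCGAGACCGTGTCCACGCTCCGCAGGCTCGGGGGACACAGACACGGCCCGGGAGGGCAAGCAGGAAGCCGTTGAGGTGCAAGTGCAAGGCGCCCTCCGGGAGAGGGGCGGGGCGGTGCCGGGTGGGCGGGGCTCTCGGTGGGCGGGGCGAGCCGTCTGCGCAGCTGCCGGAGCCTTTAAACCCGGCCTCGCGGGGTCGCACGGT
The core TGGAAA of the element that Nfat5 binds was searched on both strands of the 300-base RefSeq windows. It occurred 0 times in the windows of Slc5a3 and Nfat5, the 2 of 4 genes with a window at hand, and in 7040 of 32851 windows (21.4%) of all genes. The deposited reads were placed on GRCm39, so no other coordinates are given.

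Slc5a3 was low in the fat of tumour controls and near the healthy level under both FGF21 agents. It had 215, 264, 87.3, 378 and 132 RPM in the 5 efruxifermin libraries and 162, 214, 142, 176 and 192 RPM in the 5 FGF21 AAV libraries. It had 35.6, 24.2, 53.0, 80.9 and 80.3 RPM in the 5 tumour controls, against 162, 180, 193 and 305 RPM in the 4 healthy libraries. Every tumour control lay below every library of the other 3 groups, and the nearest value was that of efruxifermin 3. The means were 215 ± 114 RPM under efruxifermin, 177 ± 27.5 under FGF21 AAV, 54.8 ± 25.7 in tumour controls and 210 ± 64.6 in healthy fat (SD, n = 5, 5, 5 and 4). The order of the means was thus efruxifermin, healthy, FGF21 AAV and tumour control, and only the step down to the tumour controls was larger than the spread within the groups. Counts behind these values were 64 to 299 reads per tumour control library and 249 or more in each other library.

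**Figure D1:**
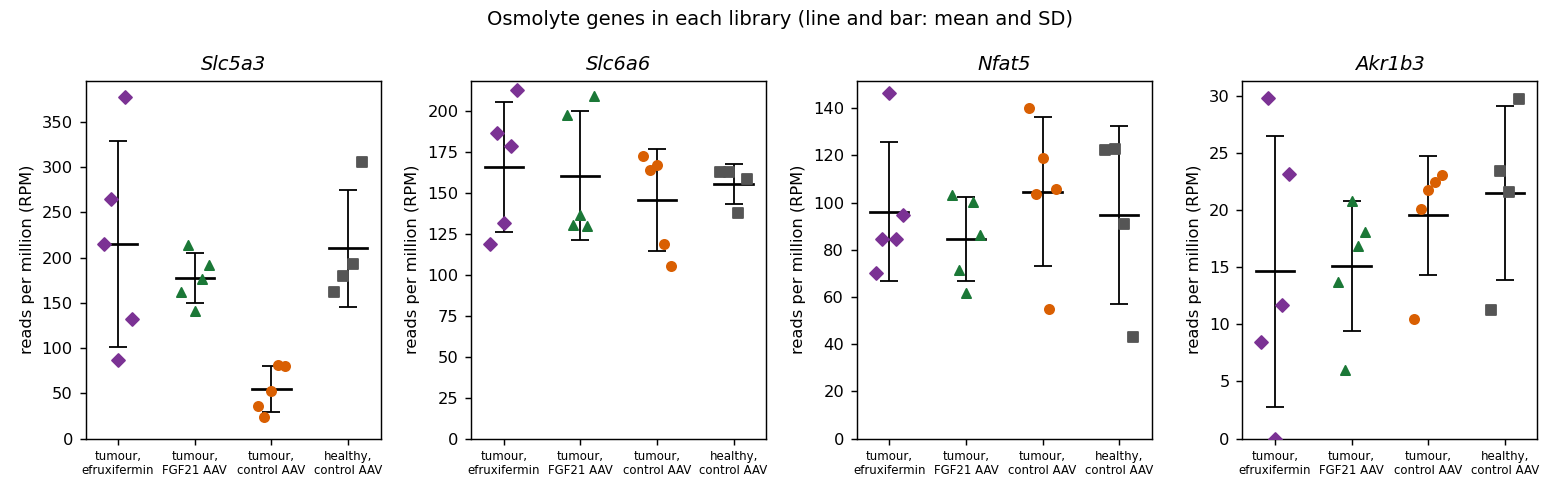
RPM of Slc5a3, Slc6a6, Nfat5 and Akr1b3 in each of the 19 libraries, 1 panel a gene, with the efruxifermin, FGF21 AAV, tumour control and healthy groups from left to right; lines and bars are the mean and SD. Slc5a3 in tumour controls (24.2 to 80.9 RPM) lies under all other libraries, while the groups overlap in the other 3 panels.

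In the fit across all genes, Slc5a3 was 4.05-fold lower in tumour controls than in healthy fat (log2 difference -2.02, SE 0.375, 95% interval -2.79 to -1.24). It was 3.77-fold higher under efruxifermin than in tumour controls (1.92, SE 0.354, interval 1.19 to 2.65) and 3.48-fold higher under FGF21 AAV than in tumour controls (1.80, SE 0.354, interval 1.07 to 2.53). These values are on the log2(RPM + 1) scale, and the comparisons share the tumour controls. As a description of the fit and no test of a gene chosen by these values, Slc5a3 was the 1 gene of the 4 past the limma threshold (adjusted p under 0.05) in each of the 3 comparisons, which called 0.047% of 17013 genes between tumour controls and healthy mice, 0.764% under efruxifermin (0.676% higher) and 0.564% under FGF21 AAV (0.517% higher). It was also the 1 gene of the 4 whose groups did not overlap, as was so for 3.66% of genes lower in tumour controls than in healthy fat, 1.06% higher under efruxifermin and 2.71% higher under FGF21 AAV. The gene was chosen by these values, so nothing is read from the counts.

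The treated groups were close to each other and to healthy fat in Slc5a3. Efruxifermin and FGF21 AAV differed by 0.115 (interval -0.616 to 0.846), efruxifermin and healthy mice by -0.0999 (interval -0.875 to 0.675), and FGF21 AAV and healthy mice by -0.215 (interval -0.990 to 0.560) on the log2 scale. Each interval held 0 and left room for differences of over 1.5-fold. Spread was widest under efruxifermin, where the SD was 53.0% of the mean, against 15.6% under FGF21 AAV, 46.9% in tumour controls and 30.7% in healthy fat. Efruxifermin 4 (378 RPM) and efruxifermin 3 (87.3 RPM) were the ends of that range. Limma called no gene of 17013 between the agents (0% called, 945 genes at an unadjusted p under 0.05), edgeR called 0 and DESeq2 15.

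Without tumour control 4 and efruxifermin 3, the Slc5a3 differences were -2.19 for tumour control against healthy, 2.37 for efruxifermin against tumour control and 1.97 for FGF21 AAV against tumour control. Leaving out any 1 library kept the differences at -2.19 to -1.76, 1.66 to 2.19 and 1.55 to 1.97 in the same order. Its place past the threshold depended on the fit and is likewise a description. With 1 library left out it was past in 3 of 9, 6 of 10 and 4 of 10 fits, and it was not past without tumour control 1 or 2 in each comparison, without any 1 of the healthy libraries, without efruxifermin 1 or 4, or without FGF21 AAV 2, 3, 4 or 5. In the other alternatives it was past in 8, 13 and 10 of 16. With the adipocyte score as a covariate, and in libraries with little lymph node RNA, it was past in none of the 3 comparisons. In tumour controls against healthy mice it was also not past with no filter, with TMM or median-of-ratios factors, with only the 2 groups, by edgeR, or in libraries with lymph node RNA. Under efruxifermin it was also not past with only the 2 groups, and under FGF21 AAV with no filter, with B cell and muscle covariates, by edgeR, or in libraries with lymph node RNA.

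Adipocyte markers moved with Slc5a3. All 10 had a lower mean log2(RPM + 1) in tumour controls than in healthy fat (median log2 difference -1.56, 0 of 10 called by limma, 7 at an unadjusted p under 0.05), and all 10 a higher one under efruxifermin (median 1.93, 0 called, 10 at an unadjusted p under 0.05) and FGF21 AAV (median 2.15, 2 called) than in tumour controls. In whole tissue, fewer fat cells and less RNA per fat cell cannot be told apart. With the adipocyte score as a covariate, Slc5a3 differed by -1.30 between tumour controls and healthy fat, 1.02 between efruxifermin and tumour control and 0.779 between FGF21 AAV and tumour control. The part of the adipocyte share in the Slc5a3 result was not tested.

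**Figure D2:**
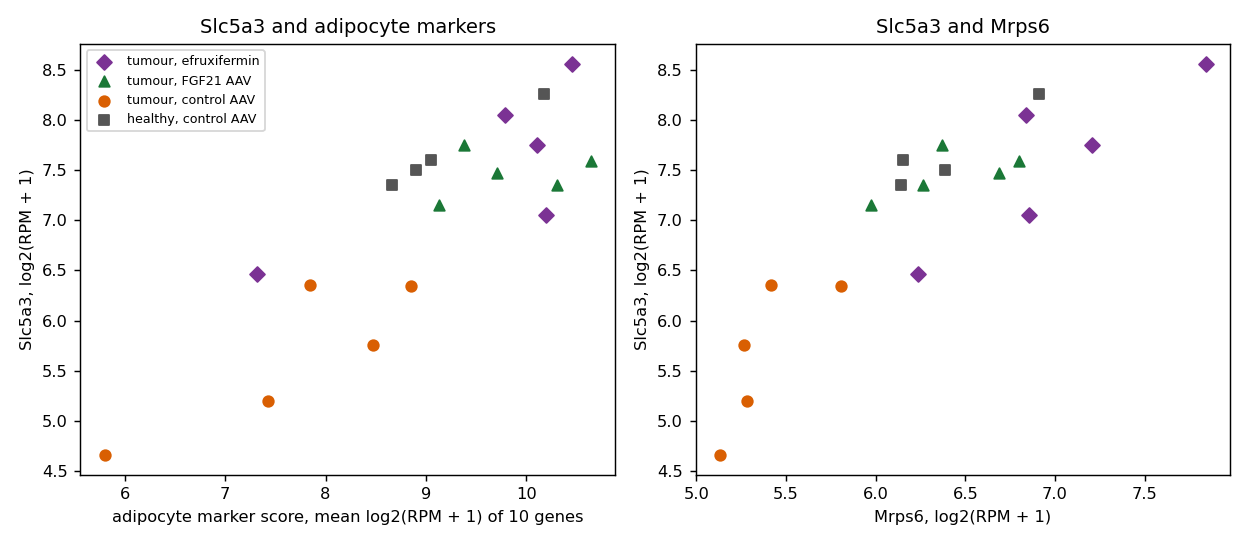
Slc5a3 in log2(RPM + 1) against the adipocyte score, the mean log2(RPM + 1) of 10 markers (left), and against Mrps6 (right), 1 point a library with colour and shape by group. Tumour controls have the lowest Slc5a3 values in both panels and the lowest Mrps6 values on the right. Their adipocyte scores (5.80 to 8.85) overlap those of healthy (8.66 to 10.2) and efruxifermin (7.32 to 10.5) libraries. Efruxifermin 3, with an adipocyte score of 7.32, is the treated library nearest to them.

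Lymph node and muscle RNA moved with the groups too. The median B cell score was 4.07 under efruxifermin, 1.41 under FGF21 AAV, 7.27 in tumour controls and 3.37 in healthy fat, and the median muscle score was 5.36, 1.22, 4.81 and 9.16 in the same groups. With both scores as covariates the Slc5a3 differences were -1.96 for tumour control against healthy, 1.74 for efruxifermin against tumour control and 1.39 for FGF21 AAV against tumour control. Among libraries with a B cell score above 3 they were -2.06, 2.40 and 1.77 in that order, and among the others, which hold tumour control 4 as their 1 tumour control, -1.45, 0.752 and 1.24. Mural cell markers had log2 differences below 0 in tumour controls against healthy fat in 8 of 8 cases (1 called by limma), with a score of 3.88 to 4.49 in tumour controls against 5.19 to 5.92 in healthy fat, and above 0 in 8 of 8 cases under each agent (median 0.928 under efruxifermin and 1.04 under FGF21 AAV). Epithelial markers were below 0 in 8 of 8 cases in tumour controls, with a score of 4.41 to 5.71 in tumour controls against 6.03 to 7.09 in healthy fat. They were above 0 in 6 of 8 cases under efruxifermin (median 0.533) and in 8 of 8 under FGF21 AAV (median 1.32). Stromal progenitor markers were below 0 in 5 of 8 cases, with a score of 5.57 to 5.87 in tumour controls against 6.56 to 7.04 in healthy fat, and above 0 in 5 of 8 under each agent. Of all genes, 61.1% were below 0 in tumour controls against healthy fat. Above 0 were 41.7% under efruxifermin and 47.2% under FGF21 AAV. The part of these cell types in the Slc5a3 result was not tested.

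Mrps6, the gene that shares the Slc5a3 promoter shown above, had the same order of tumour control below the other groups. It had 147, 113, 74.4, 228 and 115 RPM under efruxifermin and 75.8, 81.5, 61.9, 102 and 111 RPM under FGF21 AAV. It had 38.0, 34.05, 37.5, 41.7 and 55.0 RPM in tumour controls, against 69.6, 82.8, 70.1 and 119 RPM in healthy fat. As with Slc5a3, the highest tumour control lay below the lowest library of each other group. Mrps6 was named because its locus overlaps that of Slc5a3, which was chosen by these values. Its differences and p-values are therefore no independent test of the Slc5a3 pattern. Mrps6 rose 3.06-fold under efruxifermin relative to tumour controls (log2 difference 1.61, SE 0.281, limma adjusted p = 0.0108). The difference was 1.04 under FGF21 AAV against tumour control (limma adjusted p = 0.0806) and -1.02 in tumour control against healthy mice (adjusted p = 0.218), neither of which passed. The FGF21 AAV difference passed by DESeq2 (adjusted p = 0.0222), without the libraries that stood apart (limma, 0.0191) and without tumour control 4 (limma, 0.0409). The limma call under efruxifermin was lost without efruxifermin 1 (adjusted p = 0.0501) or efruxifermin 4 (adjusted p = 0.0536), in a fit of the 2 groups alone (0.217), with the adipocyte score as a covariate (difference 1.04, 0.316) and in libraries with little lymph node RNA (0.567). Reads of the readthrough model could not be split between the genes here.

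Slc6a6, the taurine transporter, was level across the groups. It had 119, 187, 132, 179 and 213 RPM under efruxifermin and 198, 130, 137, 130 and 209 RPM under FGF21 AAV. Tumour controls had 172, 164, 167, 119 and 106 RPM, against 163, 163, 138 and 159 RPM in healthy fat. All groups overlapped, and the means, 166 ± 39.4 under efruxifermin, 161 ± 39.3 under FGF21 AAV, 146 ± 30.9 in tumour controls and 156 ± 12.0 RPM in healthy fat (SD, n = 5, 5, 5 and 4), lay within 1 SD of each other. The log2 difference was -0.118 for tumour control against healthy (interval -0.624 to 0.389), 0.179 for efruxifermin against tumour control (interval -0.298 to 0.657) and 0.135 for FGF21 AAV against tumour control (interval -0.343 to 0.612). Each interval held 0 and ended short of the Slc5a3 interval of the same comparison.

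Nfat5, the transcription factor of the system, showed no step at the tumour controls either. It had 70.1, 84.7, 146, 84.5 and 94.5 RPM under efruxifermin and 103, 71.6, 61.9, 100 and 86.1 RPM under FGF21 AAV. It had 140, 104, 119, 54.7 and 106 RPM in tumour controls, against 122, 122, 91.0 and 42.9 RPM in healthy fat. The groups overlapped, and healthy 4, tumour control 4 and FGF21 AAV 3 were the lowest of their groups, whereas efruxifermin 3, a library that stood apart, was the highest of all. The means were 96.0 ± 29.4 under efruxifermin, 84.6 ± 17.9 under FGF21 AAV, 105 ± 31.4 in tumour controls and 94.7 ± 37.6 RPM in healthy fat (SD, n = 5, 5, 5 and 4). The log2 difference was 0.190 for tumour control against healthy (interval -0.483 to 0.863), -0.104 for efruxifermin against tumour control (interval -0.739 to 0.530) and -0.265 for FGF21 AAV against tumour control (interval -0.900 to 0.369). Without tumour control 4 and efruxifermin 3 the differences were 0.405, -0.481 and -0.48 for Nfat5 in that order. In libraries with little lymph node RNA, whose 1 tumour control is number 4, all 3 changed sign (-0.402, 0.878 and 0.630).

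Akr1b3, aldose reductase, was the least counted of the 4 genes, with at most 90 reads in a library. It had 8.45, 29.8, 0, 11.7 and 23.2 RPM under efruxifermin and 13.7, 5.97, 20.8, 16.8 and 18.1 RPM under FGF21 AAV. It had 10.4, 20.1, 21.8, 22.5 and 23.0 RPM in tumour controls, against 11.3, 23.4, 21.6 and 29.7 RPM in healthy fat. The groups overlapped. The value of 0 belongs to efruxifermin 3, where 0 reads allow up to 1.05 RPM (3 reads, counting error only). The means were 14.6 ± 11.9 under efruxifermin, 15.1 ± 5.70 under FGF21 AAV, 19.5 ± 5.21 in tumour controls and 21.5 ± 7.65 RPM in healthy fat (SD, n = 5, 5, 5 and 4). The log2 difference was -0.103 for tumour control against healthy (interval -1.56 to 1.35), -1.02 for efruxifermin against tumour control (interval -2.40 to 0.352) and -0.405 for FGF21 AAV against tumour control (interval -1.78 to 0.969). Without the libraries that stood apart, the Akr1b3 difference under efruxifermin was -0.14. The intervals are wide, and that of tumour controls against healthy mice holds changes of 2-fold in either direction.

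Akr1b3 has near relatives and an overlapping antisense gene, Gm14546, and the strand setting of the counting is not given in the sources used here, so its reads are uncertain. The paralog Akr1b10 had 26.4 ± 4.84 RPM under efruxifermin, 37.1 ± 10.8 under FGF21 AAV, 29.2 ± 5.92 in tumour controls and 36.8 ± 13.3 in healthy fat (SD, n = 5, 5, 5 and 4). Akr1b8, a reductase first described as induced by a fibroblast growth factor, had 8.25 ± 5.32 RPM under efruxifermin and 6.15 ± 2.60 under FGF21 AAV. It had 1.54 ± 1.58 RPM in tumour controls and 3.28 ± 1.87 in healthy fat (SD, n = 5, 5, 5 and 4). Its counts were low, with 0 to 46 reads per library under efruxifermin and 0 to 12 in tumour controls. Its log2 difference from tumour control was 1.63 under each agent and did not pass (limma adjusted p = 0.296 for efruxifermin and 0.256 for FGF21 AAV). Akr1b7 was at 0 in 5 of 5 efruxifermin libraries and had at most 13 reads in any library, under the filter.

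**Figure D3:**
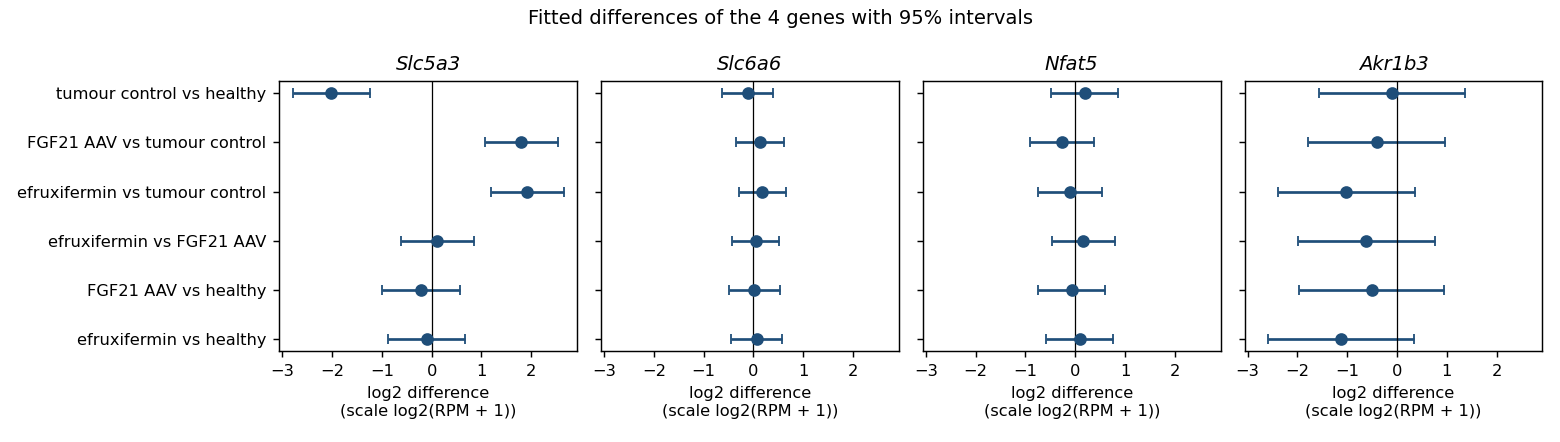
Log2 differences of the 4 genes on the log2(RPM + 1) scale in 6 comparisons, the first-named group minus the second; points are limma estimates and bars 95% intervals. The intervals of Slc5a3 leave out 0 in the 3 comparisons of tumour controls with another group, and all other intervals hold 0. The 4 genes were chosen by these values, so the intervals describe the spread and are no test.

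Among themselves the 4 genes did not share a pattern. Over the 19 libraries the Pearson correlation of log2(RPM + 1) was 0.876 between Slc5a3 and Mrps6, but 0.0956 between Slc5a3 and Slc6a6, -0.457 between Slc5a3 and Nfat5 and 0.0819 between Slc5a3 and Akr1b3. The deviations from the group means gave 0.779, -0.178, -0.581 and 0.474 in the same order. Slc6a6 and Nfat5 correlated at 0.198 over libraries and 0.246 in deviations. These are descriptions without a p, and libraries share depth and tissue makeup.

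The wider pathway was followed through 7 lists of 61 genes, of which 60 were in the table (all but Miox) and 58 were tested. Limma called 0 of 58 in tumour controls against healthy mice (6 at an unadjusted p under 0.05, edgeR 0 and DESeq2 0). It called 1 of 58 under each agent against tumour control, the water channel Aqp1, where 9 genes under efruxifermin and 17 under FGF21 AAV had an unadjusted p under 0.05; edgeR called 1 and 0 and DESeq2 2 and 6 of the 58 in these comparisons. Over all 17013 genes, 8.32% had an unadjusted p under 0.05 in tumour controls against healthy mice, 13.9% under efruxifermin and 16.0% under FGF21 AAV, beside the 0.047%, 0.764% and 0.564% called. Over all 17013 genes the median log2 difference was -0.157 in tumour controls against healthy mice, -0.137 under efruxifermin and -0.0483 under FGF21 AAV against tumour control. Over the 58 pathway genes it was -0.263, -0.00290 and 0.115 in the same order.

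Aqp1, a water channel of capillary endothelium and a reported target of Nfat5, rose under both agents relative to tumour controls. It had 588, 462, 241, 802 and 683 RPM under efruxifermin and 472, 455, 370, 366 and 473 RPM under FGF21 AAV. It had 173, 98.0, 295, 148 and 171 RPM in tumour controls, against 285, 244, 275 and 395 RPM in healthy fat. FGF21 AAV libraries all lay above the tumour controls, while efruxifermin 3 lay within their range. The log2 difference was 1.62 under efruxifermin (SE 0.294, 3.08-fold, limma adjusted p = 0.0108) and 1.35 under FGF21 AAV (SE 0.294, 2.55-fold, adjusted p = 0.0366), and it was -0.823 in tumour controls against healthy mice (adjusted p = 0.397). The limma call under efruxifermin was lost without efruxifermin 1 (adjusted p = 0.0501) or 4 (0.0536). The FGF21 AAV call was lost without tumour control 1 (0.114) or 2 (0.156), without any 1 of the 5 FGF21 AAV libraries (0.05 to 0.124) and by edgeR (0.0927), and with the adipocyte score as a covariate the differences were 0.838 (0.316) and 0.455 (0.548). Endothelial markers had a score of 5.26 to 6.66 under efruxifermin, 5.68 to 6.24 under FGF21 AAV and 4.76 to 5.88 in tumour controls, with 0 of 8 called by limma under either agent (4 and 1 at an unadjusted p under 0.05), and their part in the result was not tested. Red blood cell markers had median log2 differences of 1.02 under efruxifermin, 1.39 under FGF21 AAV and 0.221 in tumour controls against healthy mice. Limma called 0 of 6 in each (4, 5 and 1 at an unadjusted p under 0.05), and their part was not tested either. The other 9 listed targets of Nfat5 did not pass limma's threshold. Of these Hspb1, a small heat shock protein, had log2 differences of -1.21 in tumour controls against healthy mice (adjusted p = 0.478), 0.926 under efruxifermin (0.398) and 0.632 under FGF21 AAV (0.551). Without tumour control 4 and efruxifermin 3 the first of these was -1.76. Hspb1 passed in 1 of 25 alternatives in tumour controls against healthy mice and in 1 of 26 under each agent. Over the 10 targets, Aqp1 among them, the median was -0.689 in tumour controls against healthy mice (7 below 0, against 61.1% of all genes). It was 0.562 under efruxifermin (8 above 0, against 41.7%) and 0.396 under FGF21 AAV (7 above 0, against 47.2%).

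Most taurine genes differed in the direction of Slc5a3 in the 3 comparisons with tumour controls, but none of 7 tested was called by limma. An unadjusted p under 0.05 was reached by 3 in tumour controls against healthy mice, 2 under efruxifermin and 3 under FGF21 AAV (8.32%, 13.9% and 16.0% of all genes). Their median log2 difference was -1.15 in tumour controls against healthy mice (7 of 7 below 0, against 61.1% of all genes), 0.828 under efruxifermin (5 of 7 above 0, against 41.7% of all genes) and 0.699 under FGF21 AAV (6 of 7 above 0, against 47.2%). Cdo1, which oxidizes cysteine in the first step of taurine synthesis, had 876, 867, 337, 1063 and 586 RPM under efruxifermin and 923, 749, 681, 710 and 978 RPM under FGF21 AAV. It had 188, 70.7, 497, 385 and 798 RPM in tumour controls, against 491, 611, 562 and 1234 RPM in healthy fat. The tumour controls spread widely and overlapped every other group. The log2 difference was -1.22 for tumour control against healthy (limma adjusted p = 0.419), 1.25 for efruxifermin against tumour control (0.206) and 1.46 for FGF21 AAV against tumour control (0.122).

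Csad, the decarboxylase of the next step, had 284, 258, 261, 438 and 440 RPM under efruxifermin and 317, 339, 333, 340 and 477 RPM under FGF21 AAV. It had 119, 98.0, 269, 125 and 283 RPM in tumour controls, against 389, 296, 299 and 486 RPM in healthy fat. The tumour controls lay below the healthy and the FGF21 AAV libraries and overlapped the efruxifermin libraries. The log2 difference was -1.15 for tumour control against healthy (limma adjusted p = 0.164), 1.01 for efruxifermin against tumour control (0.101) and 1.14 for FGF21 AAV against tumour control (0.0634). Csad passed limma or the alternative test under FGF21 AAV in 7 of 26 alternatives and Cdo1 in 3 of 26, among them the fit without tumour control 4 and efruxifermin 3 (adjusted p = 0.0258 for Csad and 0.0299 for Cdo1). With the adipocyte score as a covariate the Cdo1 difference was -0.129 under efruxifermin and -0.112 under FGF21 AAV. The Csad difference was then 0.387 and 0.432 in these comparisons. In tumour controls against healthy mice it was -0.649 for Csad and -0.110 for Cdo1 with this covariate.

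**Figure D4:**
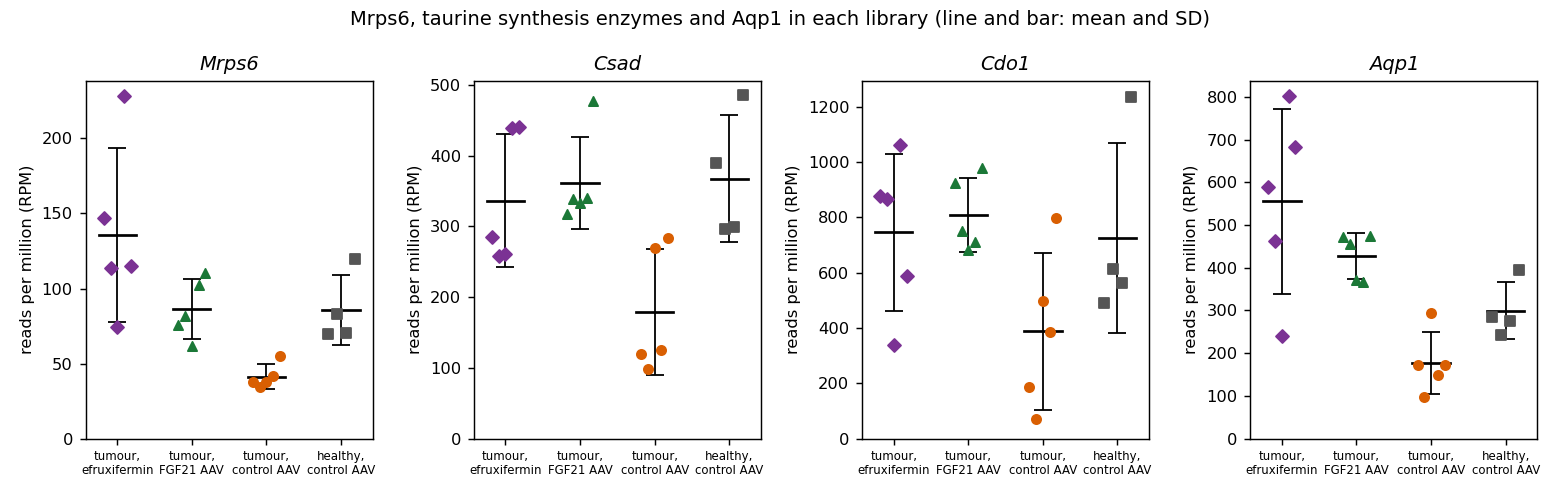
RPM of Mrps6, Csad, Cdo1 and Aqp1 in each library, 1 panel a gene, with the groups in the order of the plot of the 4 osmolyte genes; lines and bars are the mean and SD. Mrps6 in tumour controls (34.05 to 55.0 RPM) lies below the other groups, while Cdo1 in tumour controls spans 70.7 to 798 RPM.

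Genes that supply myo-inositol by other routes, or use it, did not pass. Limma called none of 5 tested, with 0 at an unadjusted p under 0.05 in each of the 3 comparisons with tumour controls. Between the agents 1 of 5 was under 0.05, as were 5.55% of all genes. In efruxifermin against healthy mice 1 of 5 was too, as were 8.07% of all genes. The median log2 difference was 0.0131 in tumour controls against healthy mice, -0.530 under efruxifermin (4 of 5 below 0, against 58.1% of all genes, the lowest -1.28) and 0.0176 under FGF21 AAV. Slc2a13, in this list, was near the floor, with 0 to 1 reads per efruxifermin library and 0 to 15 per tumour control library. Isyna1, which makes myo-inositol phosphate from glucose phosphate, averaged 53.6 RPM under efruxifermin, 60.1 under FGF21 AAV, 59.3 in tumour controls and 50.5 in healthy fat. Cdipt, which joins myo-inositol to a lipid, averaged 54.5, 57.9, 82.5 and 76.0 RPM in the same groups, with log2 differences of -0.530 under efruxifermin and -0.462 under FGF21 AAV against tumour control (limma adjusted p = 0.510 and 0.548). The second myo-inositol cotransporter, Slc5a11, was under the filter.

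Other osmolyte genes did not pass limma's threshold either, with 0, 1 and 4 of 9 at an unadjusted p under 0.05 in tumour controls against healthy mice, under efruxifermin and under FGF21 AAV. Slc38a2, an amino acid transporter that hypertonic cells are known to raise, averaged 248 RPM under efruxifermin, 186 under FGF21 AAV, 303 in tumour controls and 276 in healthy fat. Gpcpd1, which cleaves the osmolyte glycerophosphocholine, had 42.8 to 115 RPM under efruxifermin, 36.1 to 62.5 under FGF21 AAV, 65.9 to 106 in tumour controls and 39.6 to 84.3 in healthy fat. FGF21 AAV libraries lay below the tumour controls for Gpcpd1 (log2 difference -0.898, limma adjusted p = 0.142). Over the 9 genes of this list the median log2 difference was -0.281 in tumour controls against healthy mice, -0.0692 under efruxifermin and -0.0802 under FGF21 AAV.

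The 8 regulators of Nfat5 had, unlike Slc5a3, a median log2 difference above 0 in tumour controls against healthy mice (0.330). It was below 0 under efruxifermin (-0.753, 8 of 8 below 0, against 58.1% of all genes) and FGF21 AAV (-0.795, 7 of 8 below 0, against 52.8%). Limma called none of them, with 0, 2 and 3 at an unadjusted p under 0.05 in these comparisons (8.32%, 13.9% and 16.0% of all genes). Akap13, an anchoring protein that activates Nfat5, had log2 differences of 0.588 in tumour controls against healthy mice (limma adjusted p = 0.785), -0.756 under efruxifermin (0.388) and -1.02 under FGF21 AAV (0.202). Mapk14, the p38 kinase, had -0.623 under efruxifermin (0.299) and -0.429 under FGF21 AAV (0.451). The calcineurin-dependent NFAT factors, which are also lymphocyte genes, gave 1.31 for Nfatc1 in tumour controls against healthy mice (0.619) and -0.743 under efruxifermin (0.599) and -1.69 under FGF21 AAV (0.177). Nfatc3 gave 0.459 (0.821), -0.314 (0.698) and -1.06 (0.131) in the same comparisons. Under FGF21 AAV, Akap13, Nfatc1 and Nfatc3 each passed in 3 of 26 alternatives. Without tumour control 4 and efruxifermin 3 their differences there were -1.41, -2.14 and -1.31. None of them passed in any alternative under efruxifermin or in tumour controls against healthy mice. All 10 B cell markers also had log2 differences above 0 in tumour controls against healthy mice (median 2.59, 0 called by limma, 0 at an unadjusted p under 0.05) and below 0 under efruxifermin (median -2.11, 0 called, 0 unadjusted) and FGF21 AAV (median -3.60, 0 called, 7 unadjusted), and their part in these values was not tested.

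Cell volume genes gave 0 limma calls of 15 in each comparison, with 0 in tumour controls against healthy mice, 3 under efruxifermin and 1 under FGF21 AAV at an unadjusted p under 0.05. Slc12a2, the sodium, potassium and chloride importer that refills shrunken cells, averaged 655 RPM under efruxifermin, 1054 under FGF21 AAV, 434 in tumour controls and 439 in healthy fat (FGF21 AAV against tumour control, log2 difference 0.912, limma adjusted p = 0.423). The FGF21 AAV libraries had an SD of 1002 and a median of 708 RPM, and without FGF21 AAV 3 the Slc12a2 difference was 0.44. Wnk1, a kinase that senses chloride and drives this importer, averaged 490, 502, 675 and 597 RPM in the same groups, with log2 differences of -0.440 under efruxifermin (limma adjusted p = 0.330) and -0.408 under FGF21 AAV (0.323). The list's median was -0.352 in tumour controls against healthy mice, 0.172 under efruxifermin and 0.333 under FGF21 AAV.

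**Figure D5:**
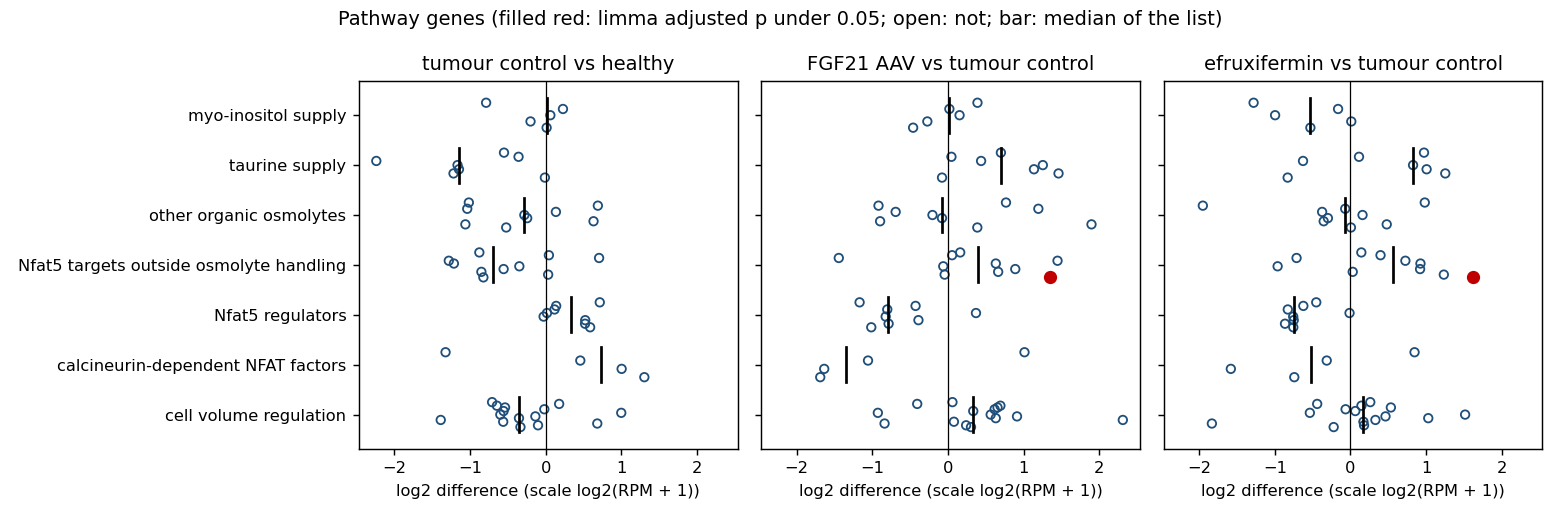
Log2 differences on the log2(RPM + 1) scale of the 58 tested pathway genes in 7 lists, in 3 panels, tumour controls against healthy fat and each agent against tumour controls; open points did not pass, filled points passed limma's threshold and bars are list medians. The filled point under each agent is Aqp1 (1.35 and 1.62), and the taurine list has its median at -1.15 in the first panel.

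The genes most like each osmolyte gene across the 19 libraries were ranked by the Pearson correlation of log2(RPM + 1) over 12175 genes of mean RPM 5 or more. Slc5a3 was most like Ptms (0.948), Lpl (0.935), Orm1 (0.925), Npr3 (0.917) and Lrp1 (0.916). Lpl encodes lipoprotein lipase, which frees fatty acids from circulating lipoproteins, and Npr3 the clearance receptor of natriuretic peptides. When the group means were removed, the nearest were Blcap (0.935), Tenm4 (0.923), Mapk8ip1 (0.919), Lpl (0.888) and Mfn2 (0.883), so Lpl stood in both rankings. Across the alternatives run, the correlation of Slc5a3 with Lpl lay between 0.906 and 0.953 over libraries.

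Slc6a6 had looser neighbours, Alg2 (0.753), Lta4h (0.752), Slc25a5 (0.738), Pcnx3 (0.732) and Dusp5 (0.731), and with median-of-ratios scaling these gave 0.557, 0.613, 0.465, 0.517 and 0.335 in the same order. With group means removed they were Dusp5 (0.844), Phb2 (0.831), Siah2 (0.789), Lta4h (0.787) and Pip5k1a (0.783), and Dusp5 gave 0.476 with median-of-ratios scaling. Nfat5 was nearest to Ubap2l (0.83), Itch (0.826), Taf1d (0.808), Relch (0.804) and Zfp414 (0.796), and with group means removed to Ubap2l (0.853), Itch (0.837), Gm37349 (0.836), Fip1l1 (0.836) and Eef2kmt (0.826). Akr1b3 was nearest to Rnf185 (0.922), Opa1 (0.899), Zbtb18 (0.889) and Mfsd8 (0.888), and with group means removed to Rnf185 (0.922), Opa1 (0.906), Cpeb2 (0.896) and Ubqln1 (0.894). These Akr1b3 values rest in part on 1 library: without efruxifermin 3, where Akr1b3 had 0 reads, the first 4 of these lay between 0.534 and 0.664.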

How the data were processed

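Libraries of 19 mice were made with the QuantSeq 3' FWD kit. Per the submitters' processing notes, FastQC, cutadapt, HISAT2 and HTSeq were used with the GRCm39 build; versions and the strand setting are not given in the sources used here. The authors deposited 1 table of RPM per gene, and each value was a whole multiple of what 1 read is worth: 100% of values up to 1000 reads lay within 0.05 of a whole number, giving 2011067 to 3693864 reads per library. That depth limits precision through counting error, beside the spread between mice.

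Groups came from the labels, and the replicates are separate mice. Genes with an RPM of at least 1 in at least 4 libraries were kept (17013 of 24844). Limma 3.58.1 in R 4.3.3 was fitted with its trend option to log2(RPM + 1) over all 4 groups, with two-sided Benjamini-Hochberg adjusted p-values over all genes tested and a threshold of 0.05; all adjusted p-values are limma's unless another tool is named. Fold changes on this scale understate the change of low genes. The script was tested on simulated data. EdgeR 4.0.16 and DESeq2 1.42.0, run on the recovered reads, were alternatives, beside pseudocounts, filters, scalings, covariates, a replicate block and leaving out libraries. Libraries were split at a B cell score of 3, and this split and the fit without tumour control 4 and efruxifermin 3 were chosen after seeing the data.

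The 4 genes and all lists were chosen with earlier results of these data known. Genes named are the 4 members, Mrps6 and the Akr1b paralogs as checks, pathway genes called in at least 1 comparison, the 2 genes of highest mean in each list, and the 5 genes most like each member by each measure, of which 1 is not reported here. Replicate numbers were not treated as pairs in the main fit. Sequences are from RefSeq for GRCm38.p6.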

Additional observations from a re-analysis of the deposited data

Results flagged for a closer look

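A library was flagged where the gap between the highest or lowest value of a group and the nearest other value was large against the group's whole range (Dixon's ratio at the 95% level). Of 32 groups checked, over 8 genes, 4 were flagged, and chance alone flags some groups at this level. Slc6a6 in healthy 3 was 137.779 RPM, with the other 3 healthy libraries at 158.662 to 162.959 RPM. Akr1b3 in tumour control 1 was 10.443 RPM, with the other 4 tumour controls at 20.051 to 23.008 RPM. Cdo1 in healthy 4 was 1234.485 RPM, with the other healthy libraries at 491.185 to 611.374 RPM. Csad in FGF21 AAV 5 was 477.078 RPM, with the other FGF21 AAV libraries at 317.005 to 340.222 RPM.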

How the results depend on the processing

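Slc5a3 kept its direction in every alternative run in the 3 comparisons with tumour controls (-2.19 to -1.30 for tumour control against healthy, 0.752 to 2.40 under efruxifermin, 0.779 to 1.97 under FGF21 AAV). Counts of calls were far less stable than sizes, and the cause was not tested. The order below is tumour control against healthy, efruxifermin against tumour control, FGF21 AAV against tumour control.

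The number of genes called (8, 130 and 96) was 13 in the first and 55 in the last with a pseudocount of 5; 14, 57 and 14 with no filter; 3 in the first with TMM and 3 with median-of-ratios factors; 1, 1 and 60 with only the 2 groups; 13, 77 and 2 with covariates for B cells and muscle; 1, 4 and 2 with the adipocyte score; 1, 46 and 8 by edgeR; 39, 399 and 521 by DESeq2 (15 between the agents); 230, 732 and 1760 without tumour control 4 and efruxifermin 3; 0, 298 and 1 with lymph node RNA and 0, 0 and 0 without it; and 158 in the last without Gm42418. With a replicate block it was 40 in the first and 150 in the last, and 2 pathway genes were called under FGF21 AAV. Replicate numbers gave no clear pairing of the mice. Of same-number pairs 8 of 27 correlated above 0.1 (median -0.0199), and of other-number pairs 24 of 108 (median -0.00839). For 7 of 19 libraries the closest match bore the same number, and the number due to chance was not computed. Leaving out 1 library gave 1 to 64, 4 to 599 and 7 to 1015 genes, each highest without tumour control 4, and 0 to 2 between the agents. Pathway calls then ranged from 0 to 3 under efruxifermin and 0 to 6 under FGF21 AAV.

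Pathway calls (0, 1 and 1) under FGF21 AAV were 0 with no filter, either covariate, edgeR or either lymph node subset, 6 by DESeq2, 12 without the libraries apart and 2 without Gm42418. Under efruxifermin they were 0 with only the 2 groups, the adipocyte score or libraries without lymph node RNA, and 2 by DESeq2, without the libraries apart or with lymph node RNA; against healthy mice they were 2 without the libraries apart.

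With the adipocyte score, Slc5a3 gave -1.2965, 1.0178 and 0.7795, Akr1b3 -2.355 under efruxifermin and -1.9208 under FGF21 AAV, and Cdo1 -0.1292 and -0.112. Without lymph node RNA, Slc5a3 gave 0.7521 under efruxifermin; Slc6a6 -0.429 in the first and -0.2821 between the agents; Nfat5 -0.4017, 0.8776 and 0.6305; Akr1b3 -2.9329 under efruxifermin and -2.1175 between the agents (0.1508 under efruxifermin with lymph node RNA); Cdipt -1.211, 0.5626 and 0.6558; Hspb1 0.4108, -1.175 and -1.7224; Akap13 -0.1717, 0.5265 and 0.4589; Wnk1 -0.0631, 0.082 and 0.0953; Nfatc3 -0.1145 in the first; Isyna1 0.4337 under efruxifermin; and Slc38a2 -0.2379 between the agents. Cdipt gave 0.1144 under FGF21 AAV with B cell and muscle scores. TMM shifted the median of all genes by 0.117 and median-of-ratios by 0.145 in the first comparison. Akr1b3 had at most 90 reads in a library.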
